A study of Mus musculus with 8 samples.

Results

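Scavenger receptors are surface and endosomal proteins with which macrophages take up modified lipoproteins, fatty acids, microbes, dying cells and matrix fragments. The 10 genes described here encode receptors of classes A (Msr1, Marco, Colec12), B (Cd36, Scarb1, Scarb2), E (Olr1), H (the stabilins Stab1 and Stab2) and I (Cd163). They are named genes, and all 10 were found by symbol among the 55357 genes of the count table and had enough counts to be tested. They were chosen by receptor class, with the measured fold changes of So(d18:1) over control in these same libraries already known, so the differences between the groups are described for them with no p-value.

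The cells were bone marrow-derived macrophages (BMDM) of wild-type C57BL/6J mice, grown from marrow in macrophage colony-stimulating factor. The 4 control cultures received methanol for 6 h, and the 4 treated cultures received 2 μM sphingosine d18:1, So(d18:1), in methanol for 6 h. So(d18:1) is the free sphingoid base released when ceramide is broken down. The sample labels name no inflammatory stimulus, whereas the paper places these cells under inflammatory stimulation. The labels do not give the age or sex of the mice, or say whether each culture came from another animal, whereas the paper calls its samples biologically independent.

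RNA with a poly(A) tail was sequenced, and between 17748397 and 26088609 reads per library were counted on genes. The totals of the groups overlapped (two-sided exact permutation test, p = 0.314). Macrophage markers (Adgre1, Csf1r, Cd68, Itgam, Fcgr1 and Mertk) summed to between 9990 and 10164 CPM (counts scaled to the library total with TMM factors) in control and between 9227 and 10151 CPM after So(d18:1) (p = 0.114 by a two-sided exact permutation test). Of these 6 genes 5 were lower with So(d18:1), beside 49.1% of all tested genes. In the test described next, 2 passed as lower and 1 as higher, beside 5.07% and 3.87% of all tested genes. Of the 14514 genes with enough counts for edgeR's quasi-likelihood test, 1298 (8.94%) passed at an adjusted p under 0.05. So(d18:1) libraries were higher for 562 of these and lower for 736.

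Class A receptors carry a collagen-like stalk and bind polyanionic ligands such as oxidised lipoprotein and bacterial surfaces. Class B receptors cross the membrane at both ends of the protein and bind lipid. CD36 takes up long-chain fatty acids and oxidised lipoprotein, SR-BI, encoded by Scarb1, exchanges cholesteryl ester with high-density lipoprotein, and LIMP-2, encoded by Scarb2, carries β-glucocerebrosidase to lysosomes. Stabilins are large endocytic receptors. Stabilin-1 is found on tissue macrophages and sinusoidal endothelium, and stabilin-2, which clears hyaluronan, is best known from the sinusoidal endothelium of liver and spleen.

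The levels of the 10 genes per gene length ranged from rank 48 to rank 11707 of the 14514 tested genes (RPKM, computed from CPM and the deposited gene length). For these genes this length is that of all annotated exons merged, not that of a single transcript, so the order depends on the annotation. Stab1 was by far the highest, at 534 ± 22.4 RPKM (SD, n = 4) in control libraries. It was followed by Cd36 at 109 ± 15.9 RPKM and Scarb2 at 80.9 ± 1.23 RPKM (SD, n = 4 each). Msr1 was at 19.7 ± 3.03, Cd163 at 11.9 ± 1.31 and Scarb1 at 10.8 ± 0.425 RPKM (SD, n = 4 each). The remaining genes were low. Colec12 was at 2.96 ± 0.0641, Olr1 at 1.44 ± 0.286, Marco at 1.34 ± 0.658 and Stab2 at 0.859 ± 0.187 RPKM (SD, n = 4 each). The control libraries of neighbours in this order did not overlap, except those of Cd163 and Scarb1, of Olr1 and Marco, and of Marco and Stab2. With So(d18:1) the ranges of Marco and Stab2 no longer overlapped, and those of the other 2 pairs still did.

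**Figure D1:**
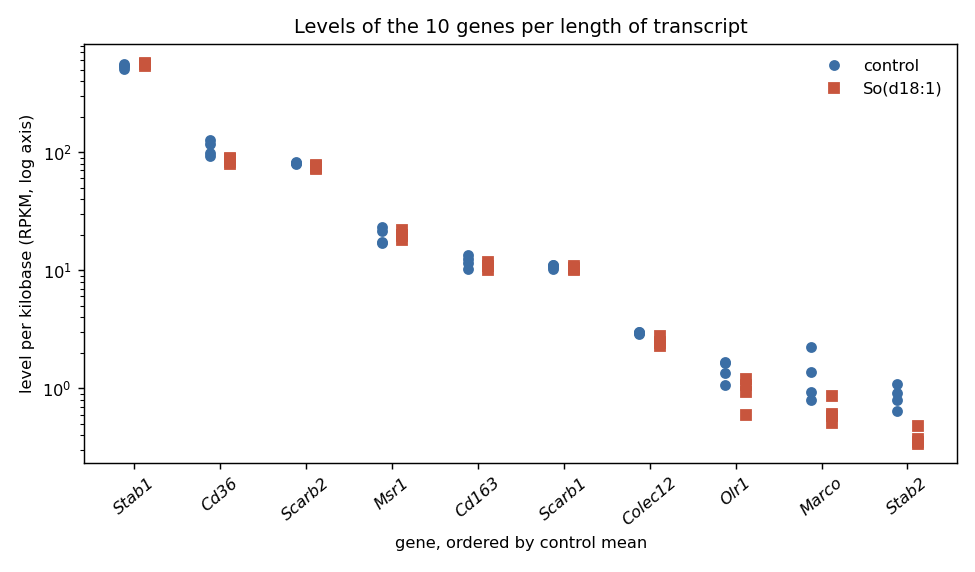
Level per kilobase of merged exons (RPKM, log axis) of the 10 genes in each control (circles) and So(d18:1) (squares) library, with genes ordered by their control mean. Stab1 lies near 534 RPKM in control and 553 RPKM in So(d18:1) libraries, and Stab2 is lowest, at 0.859 and 0.386 RPKM.

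Stab1 alone made up 66.1% to 71.1% of the summed RPKM of the 10 genes in control libraries and from 71.7% to 73.9% after So(d18:1). The sum itself lay between 756 and 791 RPKM in control and between 745 and 770 RPKM in So(d18:1) libraries, and these ranges overlapped. The sum without Stab1 lay between 221 and 258 RPKM in control and between 201 and 211 RPKM in So(d18:1) libraries. Without Stab1, therefore, every So(d18:1) library was below every control library, with Cd36 and Scarb2 making up most of this remainder.

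The stabilins are paralogues at opposite ends of this order. Stab1 (ENSMUSG00000042286) lies on chromosome 14 from 31139013 to 31168641 on the minus strand (GRCm38, the build called mm10), with 58 merged exons. Stab2 (ENSMUSG00000035459) lies on chromosome 10 from 86841198 to 87008025, also on the minus strand, with 72 merged exons. Sequence upstream of the start site is shown for both, since their levels differed most, and for Marco, which with Stab2 was lowest and had the largest differences between the groups. It is from RefSeq (GRCm38.p6), 5′ to 3′ on the strand of the gene. Bases inside the gene in GENCODE or RefSeq were left out. Capitals mark a CCAAT box, read on either strand.
Stab1, chr14:31168652-31168891, minus strand: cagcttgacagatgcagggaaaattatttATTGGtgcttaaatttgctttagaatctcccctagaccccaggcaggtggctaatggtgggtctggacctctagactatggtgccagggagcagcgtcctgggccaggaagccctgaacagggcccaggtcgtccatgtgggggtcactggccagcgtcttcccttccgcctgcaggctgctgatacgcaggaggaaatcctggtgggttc
Stab2, chr10:87008039-87008192, minus strand: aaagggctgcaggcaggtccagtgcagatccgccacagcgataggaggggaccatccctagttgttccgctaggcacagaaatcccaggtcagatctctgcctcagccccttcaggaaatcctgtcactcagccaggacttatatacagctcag
Marco, chr1:120505025-120505274, minus strand: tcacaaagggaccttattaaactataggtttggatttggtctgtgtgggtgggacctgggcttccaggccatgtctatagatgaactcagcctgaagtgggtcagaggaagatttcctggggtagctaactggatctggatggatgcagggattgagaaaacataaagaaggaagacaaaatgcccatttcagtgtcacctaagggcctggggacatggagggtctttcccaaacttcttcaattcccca

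The Stab1 window of 240 bases held 5 CpG dinucleotides and 56.7% G and C, against a median of 5 and 52.1% over all 32851 promoter windows of this length. The Stab2 window of 154 bases held 3 CpG and 55.8% G and C, against a median of 3 and 50.6%. The Marco window of 250 bases held no CpG and 47.6% G and C, against a median of 6 and 52.4%. The windows of all promoters were cut to the same length from the end farthest from the start site. Bases inside genes were not left out of them. The windows were searched on both strands for 5 motifs. The AP-1 site was read as TGANTCA. The box that NF-Y binds was read as CCAAT. The TATA box was read as TATAAA. The E-box was read as CACGTG. The last was the direct repeat bound by PPARγ with RXR. The CCAAT box of Stab1 was the single match, and 33.0% of all windows of its length held one. Of the same windows, 6.58% held the AP-1 site, 12.1% the TATA box, 5.69% the E-box and 0.0335% the direct repeat. RefSeq windows were found for 7 of the 10 genes.

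Among the class H genes, Stab1 did not move by more than its spread, while Stab2 was at less than the control range in every So(d18:1) library. In replicates 1 to 4, Stab2 was at 6.93, 5.65, 9.53 and 7.97 CPM in control and at 4.21, 3.26, 3.07 and 2.99 CPM in So(d18:1) libraries. The groups did not overlap. Control libraries averaged 7.52 ± 1.64 CPM and treated libraries 3.38 ± 0.561 CPM (SD, n = 4 each), which gave a log2 fold change of -1.16 (standard error 0.16). These levels rest on 142 to 226 counts in controls and 59 to 77 after So(d18:1). The log2 fold change stayed between -1.28, without control replicate 2, and -1.03, without control replicate 3, when a library was left out. Of the exons of Stab2, 141 bases overlap the antisense gene Gm16268, which held at most 5 counts in any library.

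Stab1 was at 5723, 5504, 5178 and 5573 CPM in control replicates 1 to 4 and at 5855, 5692, 5710 and 5496 CPM in So(d18:1) replicates 1 to 4. The groups overlapped, with 1 So(d18:1) library above all controls. The log2 fold change of 0.050 (standard error 0.044) rests on 104409 to 141641 counts per library. An exon of Stab1 overlaps Nt5dc2 on the other strand over 112 bases. The RPKM of Stab1 was 463 to 829 times that of Stab2 in controls and 1185 to 1582 times after So(d18:1).

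The class A receptors differed among themselves. Marco (ENSMUSG00000026390) lies on chromosome 1 from 120474538 to 120505024 on the minus strand, Colec12 (ENSMUSG00000036103) on chromosome 18 from 9707595 to 9882644 on the plus strand, and Msr1 (ENSMUSG00000025044) on chromosome 8 from 39581685 to 39642673 on the minus strand. Marco, which binds bacteria and inhaled particles on alveolar and splenic marginal zone macrophages, was low throughout and lower on average with So(d18:1). It was at 1.54, 1.79, 4.34 and 2.64 CPM in control replicates 1 to 4 and at 1.18, 1.13, 0.989 and 1.67 CPM in So(d18:1) replicates 1 to 4. Of the 4 So(d18:1) libraries, 3 were below all controls, and replicate 4 lay between control replicates 1 and 2. The means were 2.58 ± 1.27 CPM in control and 1.24 ± 0.296 CPM after treatment (SD, n = 4 each). Its log2 fold change was -1.04 (standard error 0.31), on 19 to 103 counts per library. Control replicate 3 set much of this value, since the log2 fold change was -0.66 without it.

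Colec12, a collectin with a class A stalk that binds sugars and oxidised lipoprotein, was at 25.1, 26.3, 26.2 and 25.8 CPM in control and at 20.0, 21.7, 20.9 and 24.3 CPM in So(d18:1) replicates 1 to 4. Every So(d18:1) library was below every control library. The control values were tight, at 25.8 ± 0.559 CPM (SD, n = 4), and the log2 fold change was -0.25 (standard error 0.070). Of its 50-base words, 4.33% occur in other genes, Vmn2r108 first, so its count is uncertain by such reads. Msr1, the founding class A receptor, was at 108, 109, 147 and 135 CPM in control and at 123, 115, 139 and 126 CPM in So(d18:1) replicates 1 to 4. The So(d18:1) values all lay inside the control range. Its log2 fold change was 0.0085 (standard error 0.11), and its sign was not stable, at -0.05 when control replicate 2 was left out and 0.10 when control replicate 3 was.

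**Figure D2:**
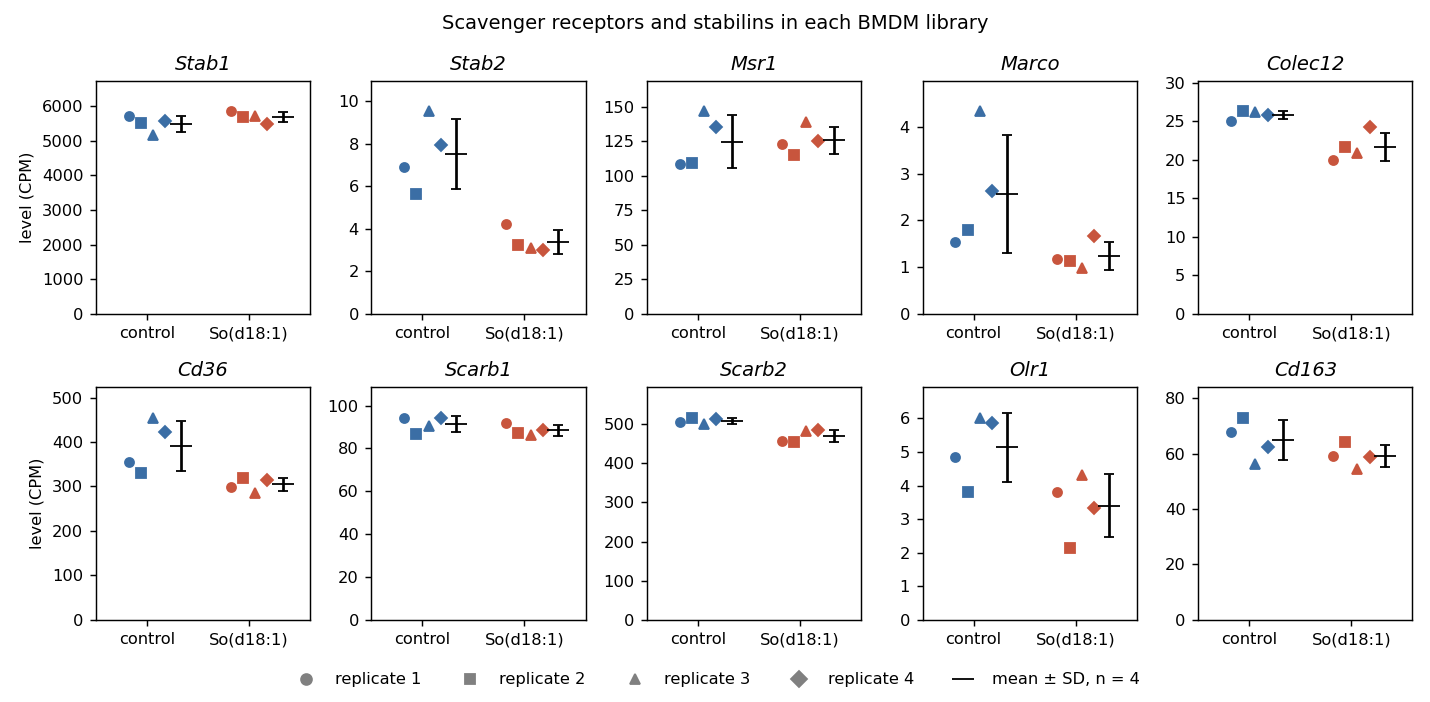
CPM of each gene in every library, with 1 symbol per replicate number, and the mean ± SD (n = 4) beside each group. Each panel starts at 0 and has its own scale. The groups do not overlap for Stab2, Colec12, Cd36 and Scarb2, and overlap for the other 6 genes.

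The class B genes all lie on the minus strand of chromosome 5, Cd36 (ENSMUSG00000002944) from 17781690 to 17888801, Scarb2 (ENSMUSG00000029426) from 92441314 to 92506833 and Scarb1 (ENSMUSG00000037936) from 125277087 to 125341094. Cd36 had the largest difference of these. It was at 356, 331, 455 and 421 CPM in control and at 298, 320, 286 and 315 CPM in So(d18:1) replicates 1 to 4, and the groups did not overlap. Control libraries averaged 391 ± 57.2 CPM and treated libraries 305 ± 15.4 CPM (SD, n = 4 each), which gave a log2 fold change of -0.36 (standard error 0.097). The control libraries were spread widely and the So(d18:1) libraries closely, with coefficients of variation of 14.6% and 5.04%. The log2 fold change was -0.28 without control replicate 3 and -0.43 without control replicate 2.

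Scarb2 was at 505, 517, 499 and 512 CPM in control and at 458, 455, 483 and 485 CPM in So(d18:1) replicates 1 to 4. This was a small and regular difference, with groups apart and a log2 fold change of -0.11 (standard error 0.041). Scarb1 was at 94.4, 86.8, 90.6 and 94.2 CPM in control and at 92.0, 87.4, 86.2 and 88.6 CPM in So(d18:1) replicates 1 to 4. Its 2 groups overlapped and differed by -0.048 on the log2 scale (SE 0.045).

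Olr1 encodes LOX-1, a lectin-like receptor of oxidised lipoprotein. It (ENSMUSG00000030162) lies on chromosome 6 from 129485244 to 129507165 on the minus strand, and Cd163 (ENSMUSG00000008845) on the same chromosome from 124304656 to 124330527 on the plus strand. Olr1 was at 4.86, 3.82, 6.03 and 5.86 CPM in control and at 3.81, 2.13, 4.32 and 3.34 CPM in So(d18:1) replicates 1 to 4, a log2 fold change of -0.61 (standard error 0.19). The groups overlapped through So(d18:1) replicate 3. Counts lay between 47 and 143 per library, and without So(d18:1) replicate 2 the log2 fold change was -0.43. Cd163 encodes the receptor for haptoglobin with bound haemoglobin. It was at 67.7, 73.0, 56.3 and 62.6 CPM in control and at 59.1, 64.2, 54.5 and 58.9 CPM in So(d18:1) replicates 1 to 4. The groups overlapped, and the log2 fold change was -0.13 (standard error 0.071).

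In the fit over all genes, 3 of the 10 genes (Stab2, Marco and Colec12) had an adjusted p under 0.05 in edgeR's quasi-likelihood test, all lower with So(d18:1), beside 8.94% of all tested genes in either direction, 5.07% lower and 3.87% higher. By the threshold of the study's methods, an unadjusted p under 0.05 plus a change of 1.5 times or more, the 3 genes were Stab2, Marco and Olr1, all lower, beside 3.89% of all tested genes in either direction and 2.48% lower. The groups did not overlap for 4 genes, all lower, beside 15.0% of all tested genes in either direction, 7.87% lower and 7.14% higher. The log2 fold change was below 0 for 8 of the 10, beside 49.1% of all tested genes. The median was -0.19 over the 10 genes and 0.0036 over all tested genes. The genes were listed with this contrast known, so nothing is read from these counts. The first count is also not stable. In the 8 fits that left out 1 library, Stab2 was called in 8, and Marco and Colec12 in 2 each. These fits reuse the same libraries, so nothing is read from them either. Only Stab2 was called without control replicate 4, without So(d18:1) replicate 1 or without So(d18:1) replicate 2. DESeq2's Wald test called 6 of the 10.

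**Figure D3:**
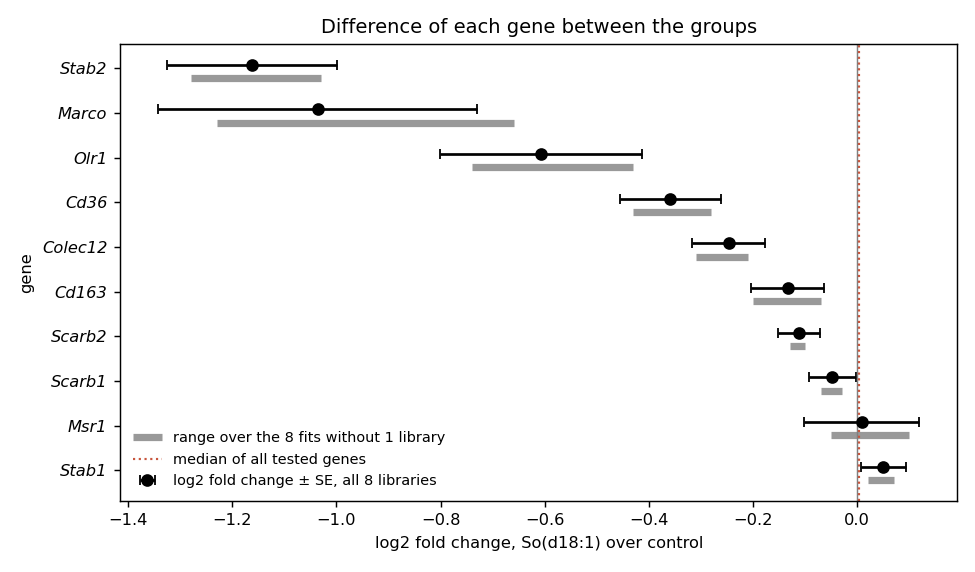
Log2 fold change of So(d18:1) over control for the 10 genes (points, with the standard error as bars), the range over the 8 fits that leave out 1 library (grey bars) and the median of all tested genes (dotted line). Stab2, Marco and Olr1 lie below -0.6, and Stab1, Msr1 and Scarb1 lie within 0.05 of 0.

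The control libraries differed among themselves for part of these genes. The SD of log2 CPM over the 4 control libraries was 0.31 for Stab2, 0.22 for Msr1, 0.21 for Cd36 and 0.64 for Marco, beside medians of 0.17, 0.060, 0.056 and 0.26 over tested genes of like level. It was 0.022 for Scarb2 and 0.031 for Colec12, beside 0.051 and 0.095. For Stab1, Cd163 and Olr1 it was 0.061, 0.16 and 0.30, beside 0.028, 0.069 and 0.19. For Scarb1 it was 0.057, beside 0.063. In control replicates 3 and 4, Stab2, Msr1, Cd36, Marco and Olr1 were all higher than in control replicates 1 and 2, a pattern looked for after the values were seen. This held for 5 of the 10 genes, beside 25.8% of all tested genes. Cd163 went the other way, lowest in control replicate 3 at 56.3 CPM and highest in replicate 2 at 73.0 CPM. All 7 neutrophil markers (S100a8, S100a9, Ly6g, Mpo, Elane, Camp and Ngp) had the pattern too. Their summed level was 1452, 1416, 1953 and 1743 CPM in control replicates 1 to 4 and 1260, 1114, 1159 and 1267 CPM in So(d18:1) replicates 1 to 4.

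**Figure D4:**
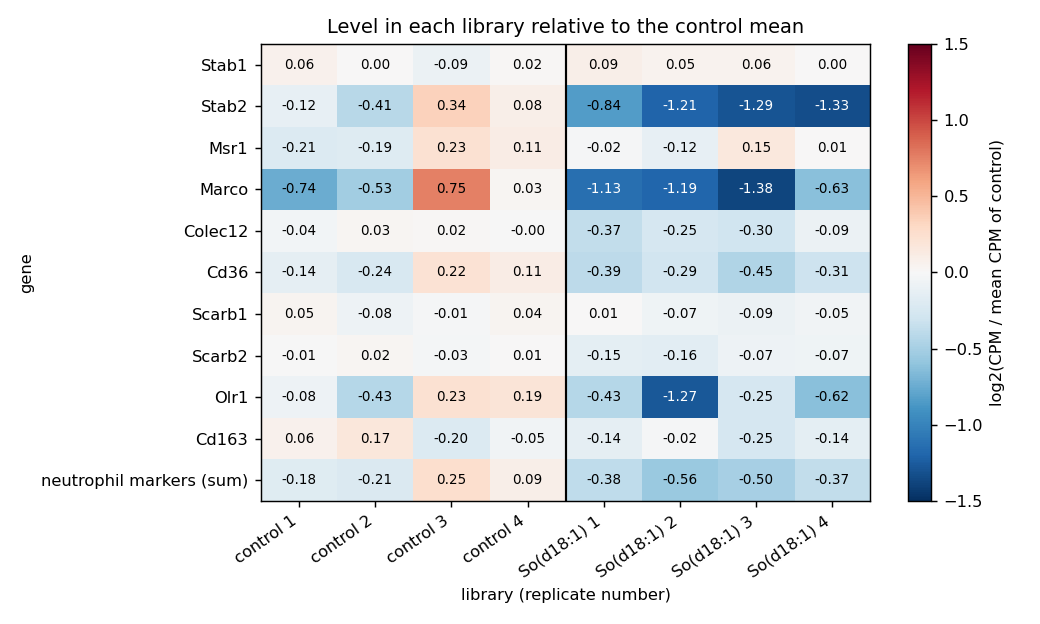
Level of each gene, and the summed level of 7 neutrophil markers, in each library as log2 of CPM over the mean CPM of control. Red is above and blue below the control mean. Control replicate 3 stands at 0.75 for Marco, 0.34 for Stab2 and 0.25 for the neutrophil markers, and at -0.20 for Cd163.

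Neutrophil markers moved with the treatment as well. All 7 were lower on average with So(d18:1), beside 49.1% of all tested genes, a share that also stands beside the marker lists below. Of the 7, 4 were lower with an adjusted p under 0.05 (edgeR), beside 5.07% of all tested genes. No So(d18:1) library reached the lowest control sum (exact permutation test, p = 0.0286, the smallest that 4 against 4 libraries can give). Msr1, which shared the pattern of the control libraries, was not lower with So(d18:1), at a log2 fold change of 0.0085. The part of the neutrophil markers in the values of Stab2, Msr1, Cd36, Marco and Olr1 was not tested. In bulk RNA, fewer cells of a type and less RNA per cell cannot be told apart. Endothelial markers were considered because stabilin-2 is an endothelial receptor. The 7 genes (Pecam1, Cdh5, Kdr, Tek, Tie1, Lyve1 and Clec4g) summed to 17.8 to 28.0 CPM in control and 13.6 to 22.4 CPM in So(d18:1) libraries, and 3 of 4 tested were lower, none with an adjusted p under 0.05. The groups overlapped (exact permutation test, p = 0.314). The sinusoidal markers were near 0, with 25 counts of Lyve1 and 1 count of Clec4g over all 8 libraries. Lymphocyte markers summed to 2.71 to 4.0 CPM in control and 0.905 to 2.64 CPM after So(d18:1) (p = 0.0286 by the exact permutation test). Of the 5 markers 3 had enough counts, all lower and none with an adjusted p under 0.05. Dendritic cell markers (17.0 to 25.1 against 16.2 to 20.2 CPM) and fibroblast markers (4.30 to 7.0 against 3.76 to 5.88 CPM) overlapped between the groups, with 3 of 5 and 2 of 3 tested genes lower. Their parts were not tested. The marker lists were chosen with earlier results of these data known. The permutation p-values were not adjusted for the number of lists.

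Further scavenger receptors and related receptors, some of the same classes, were compared next. Of 16 such genes, 10 had enough counts, and 2 of these fell and none rose with an adjusted p under 0.05 (edgeR's quasi-likelihood test, over all genes tested), beside 5.07% of all tested genes that fell and 3.87% that rose, with a median log2 fold change of -0.084. Cd68, the class D receptor of late endosomes, fell from a control mean of 763 ± 35.2 CPM to 657 ± 26.2 CPM (SD, n = 4 each), or -0.22 on the log2 scale with SE 0.045 (adjusted p = 0.00349 by edgeR), lower in 4 of 4 So(d18:1) libraries than in all controls. Clec7a, which encodes the β-glucan receptor dectin-1, fell from a control mean of 223 ± 7.30 CPM to 203 ± 5.90 CPM (SD, n = 4 each), or -0.13 on the log2 scale with SE 0.042 (adjusted p = 0.0496 by edgeR). The call of Clec7a was lost in all 8 fits that left out a library. Of the 6 genes without enough counts, Cd163l1 had no count in any library and Megf10, at 66 over the 8, the most.

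Ligands of the stabilins and proteins that sort stabilin-1 were measured in 7 of 8 cases, with 1 rise and 1 fall, beside 5.07% of all tested genes that fell and 3.87% that rose, and a median log2 fold change of -0.026. Tgfbi, a matrix protein that stabilin-1 takes up, rose from 527 ± 50.8 to 696 ± 43.9 CPM (SD, n = 4 each), or 0.40 on the log2 scale with SE 0.063 (adjusted p = 0.000705 by edgeR). It was at 547, 590, 482 and 490 CPM in control and at 643, 742, 680 and 721 CPM in So(d18:1) replicates 1 to 4, with no overlap. Gga2, an adaptor of the trans-Golgi network, fell (log2 difference -0.35 with SE 0.068, adjusted p = 0.00200 by edgeR). An antisense gene, Gm44987, overlaps its exons over 720 bases and held at most 1 count in any library.

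Genes that make, bind and break down hyaluronan, the main ligand of stabilin-2, were listed next. Of 9 tested among 14, 1 fell and none rose, beside 5.07% of all tested genes that fell and 3.87% that rose, with a median log2 fold change of 0.0089.

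Genes that handle the lipids taken up by these receptors were compared in the same way. Of 16 genes in the list, all tested, 6 fell, none rose and 10 did not pass, with a median log2 fold change of -0.25, beside 5.07% of all tested genes that fell and 3.87% that rose. Npc1 exports cholesterol from lysosomes and overlaps Rmc1 on the other strand over 511 exonic bases. It fell from a control mean of 302 ± 20.7 CPM to 244 ± 7.49 CPM (SD, n = 4 each), or -0.31 on the log2 scale with SE 0.048 (adjusted p = 0.00023 by edgeR). Lipa, the lysosomal acid lipase, fell from a control mean of 1271 ± 94.0 CPM to 1042 ± 32.9 CPM (SD, n = 4 each), or -0.29 on the log2 scale (adjusted p = 0.000663 by edgeR). Nceh1, a hydrolase of cholesteryl esters, fell from a control mean of 263 CPM to 219 CPM (log2 difference -0.26, adjusted p = 0.000784 by edgeR). Fabp4, a fatty acid binding protein, fell from a control mean of 10.3 ± 3.14 CPM to 5.39 ± 0.615 CPM (SD, n = 4 each), or -0.93 on the log2 scale (adjusted p = 0.00756 by edgeR). The other two, named after their values were seen, were Lpl, the lipoprotein lipase (log2 difference -0.60, adjusted p = 0.0327 by edgeR), and Fabp5, another fatty acid binding protein (log2 difference -0.52, adjusted p = 0.043 by edgeR). Of the 16 genes, 7 were lower in every So(d18:1) library than in every control library, beside 7.87% of all tested genes. They were these 6 and another that did not pass. In control replicates 3 and 4, 10 of the 16 genes, Lpl, Npc1, Lipa, Nceh1 and Fabp5 among them, were higher than in control replicates 1 and 2, beside 25.8% of all tested genes. The 7 neutrophil markers, which had this pattern too, were lower after So(d18:1) in the same libraries, at a summed 1641 ± 254 CPM in control and 1200 ± 76.0 CPM after treatment (SD, n = 4 each). Their part in the values of the lipid genes was not tested.

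**Figure D5:**
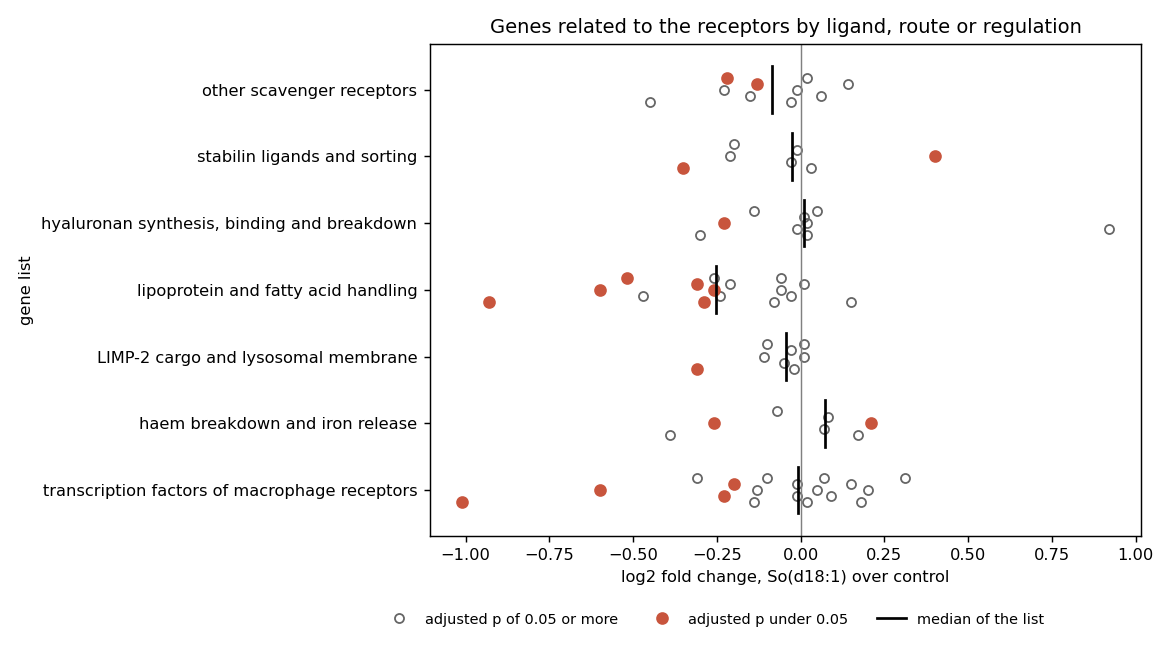
Log2 fold change of So(d18:1) over control for the tested genes of 7 lists related to the receptors. Filled points have an adjusted p under 0.05, open points do not, and the black line is the median of each list. The list of lipoprotein and fatty acid genes has 6 filled points, all below 0, and a median of -0.25.

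LIMP-2 cargo and other lysosomal membrane genes were set beside Scarb2. Of 8 tested, Npc1, counted above, was the 1 that fell and none rose, beside 5.07% of all tested genes that fell and 3.87% that rose, and the median log2 fold change was -0.043. Haem breakdown and iron release, which follow uptake by CD163, had 1 rise and 1 fall among 7 tested genes, beside 5.07% of all tested genes that fell and 3.87% that rose, with a median log2 fold change of 0.071. Blvra, a biliverdin reductase, fell (log2 difference -0.26 with SE 0.048, adjusted p = 0.00144 by edgeR). Fth1, the ferritin heavy chain, rose (log2 difference 0.21 with SE 0.061, adjusted p = 0.0402 by edgeR), a call that was lost in 5 of the 8 fits that left out a library.

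Among 18 transcription factors known to act on receptor genes of macrophages, all tested, 4 fell and none rose, beside 5.07% of all tested genes that fell and 3.87% that rose, with a median log2 fold change of -0.0072. Pparg encodes PPARγ, a lipid-activated receptor known for switching on Cd36 and Fabp4. It was at 11.1, 9.71, 12.1 and 11.6 CPM in control and at 5.05, 4.57, 5.99 and 6.40 CPM in So(d18:1) replicates 1 to 4. The groups did not overlap, and the log2 difference was -1.01 with SE 0.12, adjusted p = 9.82e-06 by edgeR. Nr1h3, which encodes the oxysterol receptor LXRα, fell from a control mean of 13.3 ± 2.69 CPM to 8.75 ± 1.28 CPM (SD, n = 4 each), or -0.60 on the log2 scale with SE 0.14 (adjusted p = 0.0104 by edgeR). Maf, a factor of resident macrophages, fell from a control mean of 801 ± 7.91 CPM to 682 ± 18.3 CPM (SD, n = 4 each), or -0.23 on the log2 scale (adjusted p = 0.00063 by edgeR). Mitf, of the family of lysosomal gene regulators, fell (log2 difference -0.20, adjusted p = 0.00795 by edgeR). In control replicates 3 and 4, 12 of the 18 factors were higher than in control replicates 1 and 2, Pparg and Nr1h3 among them. Maf and Mitf did not have this pattern, and some factors with it were higher on average with So(d18:1). The share was 25.8% over all tested genes, and the pattern was looked for after the values were seen. Neutrophil markers were lower in the same libraries, as given above, and their part in the values of these factors was not tested.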

How the data were processed

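RNA of 8 BMDM libraries, 4 control and 4 So(d18:1), was analysed from one table. The authors deposited raw counts for each Ensembl gene, as whole numbers without normalization. Per the paper's methods and the submitters' processing notes, reads were trimmed with Trim Galore 0.6.7, aligned to mm10 with HISAT2 2.2.1 and counted with featureCounts 2.0.1. The strand setting and the handling of reads with several matches are not given in the sources used here.

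Of the 55357 identifiers, 52081 carried a symbol in GENCODE M21 (GRCm38). Genes were filtered by filterByExpr, scaled by TMM and tested with the quasi-likelihood F test of edgeR 4.0.16 in R 4.3.3 (robust, no covariate), with Benjamini-Hochberg adjustment and a threshold of 0.05. Standard errors were derived from the F statistic and the log2 fold change. RPKM are CPM divided by the deposited gene length in kilobases. Total counts lay between 17748397 and 26088609, and 4 libraries in each group limit the precision. P-values measure the spread between these libraries.

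The 10 genes, the 7 lists of related genes and the 6 marker lists were chosen with earlier results of these data known. Named are all 10 genes and, in each related list, the genes with an adjusted p under 0.05, at most the 4 with the smallest p. Some genes of these lists are not reported here by name. The alternatives tried were scaling by upper quartile, by library size alone or by the size factors of DESeq2, no filter, a minimum of 10 counts per library, a block for replicate number, DESeq2 1.42.0, limma-voom (limma 3.58.1), the study's threshold, and each library left out. Overlap with other genes was read from GENCODE, and shared sequence was the share of a gene's 50-base transcript words that other genes also hold. Plots used matplotlib 3.10.9.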

Additional observations from a re-analysis of the deposited data

How the results depend on the processing

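The log2 fold changes of the 10 genes kept their sign under the other scalings, filters and tests, except that of Msr1, which lay between -0.00 and 0.02, and no scaling moved the median of all genes by more than 0.1 on the log2 scale. Calls depended more on the setting. All genes called numbered 1298, against 564 by the study's threshold and 815 (without So(d18:1) replicate 2) to 1370 (without control replicate 2) with a library left out. Of the 10 genes, 3 were called, against 5 with no filter on low counts, 6 by DESeq2's Wald test, 2 by limma-voom and 1 to 4 with a library left out. Over the related lists, 17 genes were called, against 5 by the study's threshold and 13 to 21 with a library left out. The difference in the summed neutrophil markers lay between -516 and -337 CPM and that in the lymphocyte markers between -1.59 and -1.01 CPM with a library left out, where 3 against 4 libraries cannot give a p under 0.0571. Same-numbered libraries deviated together with correlations of -0.0035 to 0.10, and not every library correlated best with its own number. The labels do not say whether same-numbered cultures share an animal or a batch, and these weak correlations cannot decide it. With the replicate block, 5 of the 10 genes, 28 genes of the related lists and 1784 genes in all were called. Of 62 groups of 4 libraries examined for a single library far from the rest by Dixon's ratio, 0 passed, where chance gives about 3.1. Marco, Olr1 and Stab2 had at most 226 counts in any library, which limits their precision. The causes of these dependences were not tested.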

Other observations

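Other macrophage genes among the identity markers changed. Mertk, a receptor for dying cells, averaged 210 CPM in controls and 162 CPM after So(d18:1) (log2 difference -0.38 with SE 0.043, adjusted p = 6.2e-06 by edgeR). Itgam, the integrin chain CD11b, averaged 420 CPM in controls and 478 CPM after So(d18:1) (log2 difference 0.18 with SE 0.045, adjusted p = 0.0119 by edgeR). Of the 50-base words of Itgam, 66.3% occur in other genes, Gm49368 first, so its count is uncertain. Both were chosen after their values were seen. The groups did not overlap for Mertk or for Itgam.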
